A study of Mus musculus with 12 samples.

Results

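Circadian clock genes were followed in the livers of YAP-deficient mice. The 10 genes are Arntl, Clock, Npas2, Per1, Per2, Per3, Cry1, Nr1d1, Nr1d2 and Dbp, chosen by name from the 41743 genes of the deposited tables, and all 10 were found there. Whole-liver RNA was sequenced for 12 females, with 3 mice in each of 4 groups, and the adult mice of the study were 3 to 4 months old. YAP KO mice carried Foxa3-Cre, Yap1 fl/fl and a floxed ROSA-stop EYFP reporter on the C57BL/6 background, so both copies of Yap1 were lost in cells descended from the foregut endoderm, which form hepatocytes and bile ducts but not the other cells of the liver. YAP KO TAZ HET mice, on a mixed background of C57BL/6 and FVB, also lost both copies of Yap1 through Foxa3-Cre and in addition 1 copy of Wwtr1, the gene for TAZ. WT littermates of each model served as its controls, named WT (C57BL/6) and WT (mixed). Whether WT mice carried Cre or floxed alleles is not given in the sources used here. Mice were kept under a daily cycle of light and dark with free access to chow, and the hour at which each liver was collected is not given in the sources used here.

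The clock of a liver cell is a feedback loop of transcription. ARNTL (also called BMAL1) pairs with CLOCK or NPAS2 and switches on genes that carry an E-box, among them the Period and Cryptochrome genes, whose proteins then hold the pair back, and Nr1d1 and Nr1d2, whose proteins (REV-ERB alpha and beta) repress Arntl and Npas2 through RORE sites. Dbp, a transcription factor that binds D-boxes, is a direct output of the same pair. In a normal liver the levels of these genes rise and fall over the day, with Arntl and Npas2 high when Dbp and the Period genes are low.

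The promoter sequences below are shown because they hold the DNA sites through which the limbs of the loop act on each other. RefSeq windows on GRCm38.p6 from 250 bases before to 50 bases after a gene start were at hand for 9 of the 10 genes, in 13 windows, with none for Per2. Both strands were searched for the E-box CACGTG, the D-box TTATGTAA and the RORE in the forms TAGGTCA and TGGGTCA, and no match overlapped another. Of 32851 windows of the same length over all genes, 7.15% held the E-box, 0.938% the D-box and 6.45% a RORE of either form. Capitals mark the matches in these 4 windows, which lie at chr7:113207261-113207560 on the plus strand (Arntl), chr4:151044616-151044915 on the minus strand (Per3), chr11:69098699-69098998 on the plus strand (Per1) and chr10:85185005-85185304 on the minus strand (Cry1).
Arntl: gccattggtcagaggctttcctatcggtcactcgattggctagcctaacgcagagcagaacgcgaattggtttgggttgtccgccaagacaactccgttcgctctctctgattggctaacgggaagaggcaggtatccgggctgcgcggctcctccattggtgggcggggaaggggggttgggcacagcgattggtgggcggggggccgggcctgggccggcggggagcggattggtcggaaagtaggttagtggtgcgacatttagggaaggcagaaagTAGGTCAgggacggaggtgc
Per3: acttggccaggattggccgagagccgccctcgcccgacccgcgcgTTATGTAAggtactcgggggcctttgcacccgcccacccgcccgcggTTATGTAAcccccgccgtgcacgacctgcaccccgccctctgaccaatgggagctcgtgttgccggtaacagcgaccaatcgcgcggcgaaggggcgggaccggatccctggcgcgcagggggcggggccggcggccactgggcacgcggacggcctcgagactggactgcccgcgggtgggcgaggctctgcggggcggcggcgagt
Per1: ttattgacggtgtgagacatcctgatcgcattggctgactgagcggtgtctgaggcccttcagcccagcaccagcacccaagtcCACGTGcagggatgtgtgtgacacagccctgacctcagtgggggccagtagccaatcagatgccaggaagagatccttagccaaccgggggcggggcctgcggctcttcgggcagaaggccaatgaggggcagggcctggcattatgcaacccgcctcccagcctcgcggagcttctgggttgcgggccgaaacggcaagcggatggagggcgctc
Cry1: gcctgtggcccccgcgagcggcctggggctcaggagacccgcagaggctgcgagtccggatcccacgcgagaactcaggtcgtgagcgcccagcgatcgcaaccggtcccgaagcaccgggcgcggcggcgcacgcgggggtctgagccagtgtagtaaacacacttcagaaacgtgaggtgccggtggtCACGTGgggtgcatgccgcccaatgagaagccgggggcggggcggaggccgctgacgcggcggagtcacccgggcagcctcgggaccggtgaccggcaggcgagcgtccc
The Arntl window held a RORE at base 31 after the start. In the Per3 window there were 2 D-boxes, 205 and 158 bases before the start. The Per1 window held an E-box 166 bases before the start, and that of Cry1 an E-box 60 bases before it. In the other 9 windows none of these letters occurred, which says nothing about sites outside them, and a match is a description of the sequence and not a bound site.

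Levels are given as TPM (transcripts per 1000000), in which reads are divided by gene length and then brought to the same total in every library. Each library summed to 1000000 TPM, so its depth cannot be read from the values, and the spread between 3 mice is the only error at hand. The libraries held 14442 to 15047 genes above 0. Yap1 was at 28.2 to 33.2 TPM in the 6 WT livers, 1.67 to 3.72 TPM after loss of Yap1 alone and 8.63 to 11.5 TPM in livers that were also TAZ HET. Wwtr1 was at 6.26 to 8.38 TPM in WT livers, 13.3 to 16.7 TPM after loss of Yap1 alone and 11.5 to 14.1 TPM in livers that were also TAZ HET. For the tests, TPM values were scaled between libraries, 1 was added, log2 was taken and limma was run on every gene that reached 1 TPM in 3 or more libraries. Fold changes are therefore log2 differences of scaled TPM + 1, given with their standard error (SE), and they understate the change of genes near 0. Without the scaling the median log2 fold change of all tested genes was 0.28 for YAP KO and 0.24 for YAP KO TAZ HET mice, where with it both medians were -0.04. In whole liver, fewer cells of a type and less RNA per cell cannot be told apart.

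Arntl and Clock were higher in both models, while Dbp, Per2, Per3 and Nr1d2 were lower. In YAP KO mice 6 of the 9 clock genes tested passed an adjusted p of 0.05, where 36.8% of all 11704 genes tested did. Of these, 2 rose (18.7% of all genes rose) and 4 fell (18.1% of all genes fell). With TAZ HET added, 7 of 9 passed (38% of 11741 genes), 2 higher (19.2%) and 5 lower (18.7%). Arntl, 1 of the 2 higher, entered that test only through the knockout livers and is no support for the count, which without it is 6 of 8. Npas2 missed the minimum level in both. Counting all 10 genes on scaled TPM, the YAP KO and WT groups did not overlap for 7, where 51.4% of all tested genes did not. The YAP KO TAZ HET and WT groups did not overlap for 8, where 52% of all tested genes did not. Both counts take in Npas2, which was not among the tested genes that these shares describe, so it is no support for either count. Arntl is likewise no support for the 8, for the reason given above. The median log2 fold change of the tested members was -0.46 for YAP KO and -0.90 for YAP KO TAZ HET mice. The plot of levels by mouse shows every value.

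**Figure D1:**
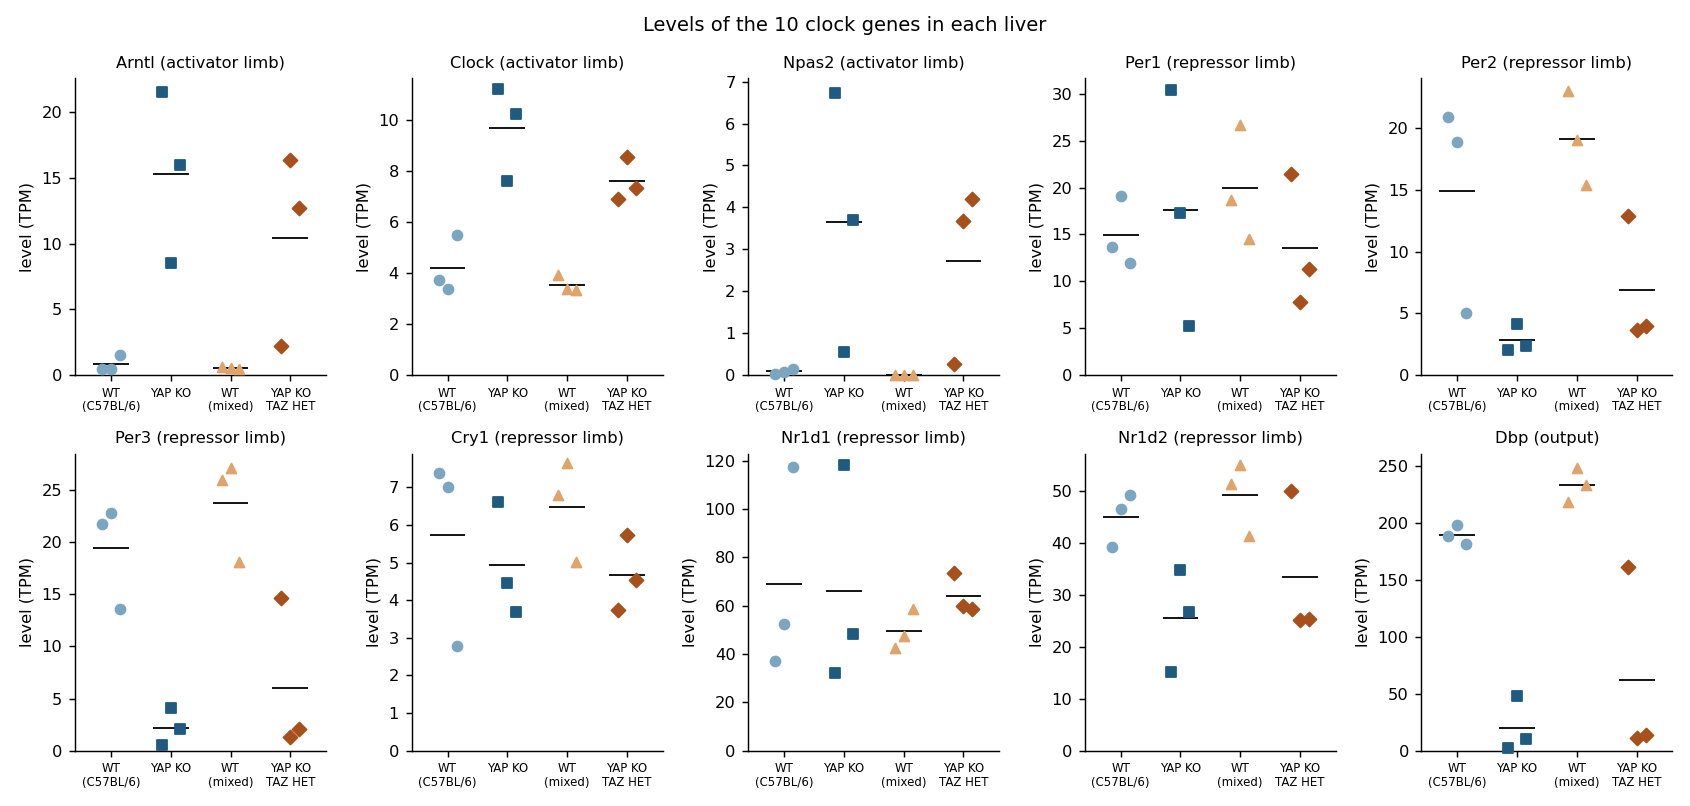
Level (TPM, linear axes from 0) of each of the 10 clock genes in 12 livers, with 1 point per mouse, 4 groups of 3 and a line at the group mean; the left-to-right place of a point within its group has no meaning. Arntl reached at most 1.51 TPM in WT livers and up to 21.5 TPM in knockout livers, while Dbp was at 182 to 248 TPM in WT livers and at 2.05 to 161 TPM in knockout livers.

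Within the activator limb, Arntl (ENSMUSG00000055116, chr7:113207465-113314126, plus strand) was close to the floor in WT livers. It stood at 1.51, 0.480 and 0.440 TPM in the WT (C57BL/6) mice LM75, LM192 and LM193, and at 16.0, 21.5 and 8.51 TPM in YAP KO mice LM74, LM189 and LM191. The lowest YAP KO liver was thus above the highest WT liver, and the ratio of the mean TPM was 18.9. The log2 fold change was 2.88 (SE 0.35, limma adjusted p = 0.000566). In the mixed set the WT mice LM226, LM227 and LM230 had 0.573, 0.529 and 0.437 TPM, and the YAP KO TAZ HET mice LM225, LM250 and LM251 had 2.22, 16.4 and 12.7 TPM. LM225 stood far below its group, yet above all 6 WT livers. The log2 fold change was 2.42. Because no WT (mixed) liver reached 1 TPM, the gene passed the level filter there only through the knockout group, so its test is taken from the fit with no filter on the level (SE 0.61, limma adjusted p = 0.027). An antisense gene that overlaps it, Gm45355, was listed at 0 in every library.

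Npas2 (ENSMUSG00000026077, chr1:39193731-39363236, plus strand), which can stand in for CLOCK as the partner of ARNTL, had the same order of mice as Arntl within each knockout group but for LM250 and LM251. In the C57BL/6 set its level was 0.152, 0.0235 and 0.0752 TPM in WT mice (LM75, LM192, LM193) and 3.69, 6.74 and 0.542 TPM in YAP KO mice (LM74, LM189, LM191). In the mixed set it was listed at 0 in all 3 WT livers and stood at 0.263, 3.67 and 4.20 TPM in LM225, LM250 and LM251. Every knockout liver was above every WT liver of its set, and LM191 and LM225 were the lowest knockout livers. Too few libraries reached 1 TPM for the test. With no filter on the level, limma gave a log2 fold change of 1.68 (SE 0.52, adjusted p = 0.0575) in YAP KO mice, and an adjusted p of 0.0585 in YAP KO TAZ HET mice.

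Clock (ENSMUSG00000029238, chr5:76209868-76304792, minus strand), whose RNA swings far less over the day than that of its partners, showed a smaller and tighter difference. WT (C57BL/6) livers had 5.47, 3.73 and 3.35 TPM (LM75, LM192, LM193) and YAP KO livers 10.2, 11.2 and 7.62 TPM (LM74, LM189, LM191). WT (mixed) livers had 3.90, 3.39 and 3.34 TPM (LM226, LM227, LM230) and YAP KO TAZ HET livers 6.92, 8.55 and 7.31 TPM (LM225, LM250, LM251). All 6 knockout livers were above all 6 WT livers. The log2 fold changes were 0.74 (SE 0.20, limma adjusted p = 0.0237) in YAP KO mice and 0.65 (SE 0.13, limma adjusted p = 0.00482) in YAP KO TAZ HET mice. Leaving out LM192, LM193, LM74 or LM189 raised the limma adjusted p in YAP KO mice to between 0.0601 and 0.0815, as testing without a level filter did (0.0503).

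Of the repressor limb, Per3 (ENSMUSG00000028957, chr4:151003652-151044665, minus strand) had the lowest log2 fold change in both models. Its level was 13.6, 21.8 and 22.9 TPM in WT (C57BL/6) mice LM75, LM192 and LM193 and 2.07, 0.499 and 4.05 TPM in YAP KO mice LM74, LM189 and LM191. WT (mixed) mice LM226, LM227 and LM230 had 26.0, 27.1 and 18.1 TPM, against 14.6, 1.26 and 2.09 TPM in LM225, LM250 and LM251. The groups did not overlap in either set, although LM225 lay nearer to WT livers than to its own group. The log2 fold changes were -3.09 (SE 0.39, limma adjusted p = 0.000653) and -2.62 (SE 0.59, limma adjusted p = 0.00895). Per3 lies within the much longer gene Camta1 on the same strand, which was at most at 0.670 TPM in any liver.

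Per2 (ENSMUSG00000055866, chr1:91415982-91459324, minus strand), another Period gene of the core loop, was lower as well. WT (C57BL/6) livers had 5.01, 20.9 and 18.9 TPM (LM75, LM192, LM193) and YAP KO livers 2.35, 1.99 and 4.13 TPM (LM74, LM189, LM191). WT (mixed) livers had 23.0, 19.1 and 15.4 TPM (LM226, LM227, LM230) and YAP KO TAZ HET livers 12.9, 3.64 and 4.00 TPM (LM225, LM250, LM251). LM75 was the lowest WT liver and LM225 the highest knockout liver, and neither crossed into the other group of its set. Changes on the log2 scale were -2.18 (SE 0.46, limma adjusted p = 0.00738) and -1.82 (SE 0.35, limma adjusted p = 0.00448).

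Per1 (ENSMUSG00000020893, chr11:69095217-69109960, plus strand), a Period gene that also responds acutely to glucocorticoids and cAMP, passed the test in neither model. Its levels were 11.9, 13.7 and 19.1 TPM in WT (C57BL/6) mice and 5.17, 30.4 and 17.2 TPM in YAP KO mice LM74, LM189 and LM191. Of the mixed set, they were 18.7, 26.7 and 14.5 TPM in WT mice and 21.5, 7.76 and 11.3 TPM in LM225, LM250 and LM251. The YAP KO group spanned a 5.88-fold range and enclosed every WT liver of its set. On the log2 scale the changes were -0.37 (SE 0.54, limma adjusted p = 0.627) and -0.90 (SE 0.32, limma adjusted p = 0.0552). Without LM74 the value in YAP KO mice turned to 0.33, and without LM225 that in YAP KO TAZ HET mice reached -1.22 (limma adjusted p = 0.00826).

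Cry1 (ENSMUSG00000020038, chr10:85131700-85185064, minus strand), a strong repressor of the ARNTL and CLOCK pair, showed smaller differences. It had 2.79, 7.39 and 6.998 TPM in WT (C57BL/6) mice LM75, LM192 and LM193 and 3.70, 6.62 and 4.47 TPM in YAP KO mice. WT (mixed) mice had 6.79, 7.64 and 5.01 TPM, and LM225, LM250 and LM251 had 3.75, 5.72 and 4.54 TPM. On TPM the groups overlapped in both sets. The log2 fold change was -0.42 (SE 0.32, limma adjusted p = 0.338) in YAP KO mice and -0.66 (SE 0.19, limma adjusted p = 0.0236) in YAP KO TAZ HET mice. Without LM75 the first became -0.79 (limma adjusted p = 0.0394). The call in YAP KO TAZ HET mice was lost without scaling (-0.40, limma adjusted p = 0.121), with all 12 libraries in 1 fit (0.0928) and without LM226, LM227, LM225 or LM251 (adjusted p 0.0573 to 0.0762).

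Of the REV-ERB genes, Nr1d2 (ENSMUSG00000021775, chr14:18204054-18239127, minus strand) was at 49.3, 39.2 and 46.6 TPM in WT (C57BL/6) mice LM75, LM192 and LM193 and at 26.7, 15.04 and 34.7 TPM in YAP KO mice LM74, LM189 and LM191. WT (mixed) mice had 51.4, 55.1 and 41.3 TPM, and LM225, LM250 and LM251 had 49.97, 25.2 and 25.3 TPM. YAP KO livers were all below their WT livers, while on TPM LM225 lay among the WT (mixed) livers. Log2 fold changes came to -1.22 (SE 0.26, limma adjusted p = 0.00807) and -0.92 (SE 0.23, limma adjusted p = 0.0137). The second lost its call without scaling (-0.61, limma adjusted p = 0.0811) and without LM250 or LM251 (adjusted p 0.0517 and 0.058).

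Nr1d1 (ENSMUSG00000020889, chr11:98767932-98775333, minus strand) passed the test in neither model. It stood at 117, 37.2 and 52.5 TPM in WT (C57BL/6) mice LM75, LM192 and LM193 and at 48.4, 32.0 and 118 TPM in YAP KO mice LM74, LM189 and LM191. LM75 and LM191, which belong to different groups, were above the other 10 livers. WT (mixed) mice had 42.5, 47.5 and 58.6 TPM, and LM225, LM250 and LM251 had 73.3, 60.0 and 58.8 TPM. The log2 fold changes were -0.46 (SE 0.54, limma adjusted p = 0.536, 95% interval -1.71 to 0.78) and 0.06 (SE 0.15, limma adjusted p = 0.797, 95% interval -0.30 to 0.41). The first was 0.02 without LM75, and the second was -0.09 without LM226. Whether Nr1d1 and Nr1d2 changed unequally was not tested. The interval for Nr1d1 holds the value of Nr1d2 in YAP KO mice but not in YAP KO TAZ HET mice (-0.92). The end of Nr1d1 shares 1075 bases with Thra on the other strand, which had a mean of 10.9 TPM over the 12 livers and passed the test in neither model (log2 fold changes 0.15 and 0.20). Whether reads were counted by strand is not given in the sources used here, so reads of the overlap may belong to either gene.

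The output gene Dbp (ENSMUSG00000059824, chr7:45705088-45710203, plus strand) was the most abundant of the 10 in every WT liver. It was at 182, 189 and 199 TPM in WT (C57BL/6) mice LM75, LM192 and LM193 and at 10.4, 2.05 and 48.0 TPM in YAP KO mice LM74, LM189 and LM191. WT (mixed) mice had 219, 248 and 233 TPM, against 161, 11.2 and 14.1 TPM in LM225, LM250 and LM251. No knockout liver reached a WT liver, and mean TPM was 9.41 times lower in YAP KO mice and 3.76 times lower in YAP KO TAZ HET mice. Its log2 fold changes were -4.34 (SE 0.81, limma adjusted p = 0.00439) and -3.23 (SE 0.81, limma adjusted p = 0.0149), the farthest from 0 of the tested clock genes on that scale, whereas on the ratio of mean TPM Arntl differed more (18.9 and 20.4). The second rests on unequal mice, being -4.37 without LM225 and -2.73 without LM251 (limma adjusted p = 0.0593), and robust variance shrinkage also lifted its adjusted p to 0.0679. Dbp shares 737 bases with Sphk2 on the other strand, which reached at most 36.2 TPM in any liver. The mean of Sphk2 over the 12 livers, 27.3 TPM, was above Dbp in LM74, LM189, LM250 and LM251. Since counting by strand is not known, reads of this overlap may belong to either gene, and low Dbp values may hold reads of Sphk2.

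**Figure D2:**
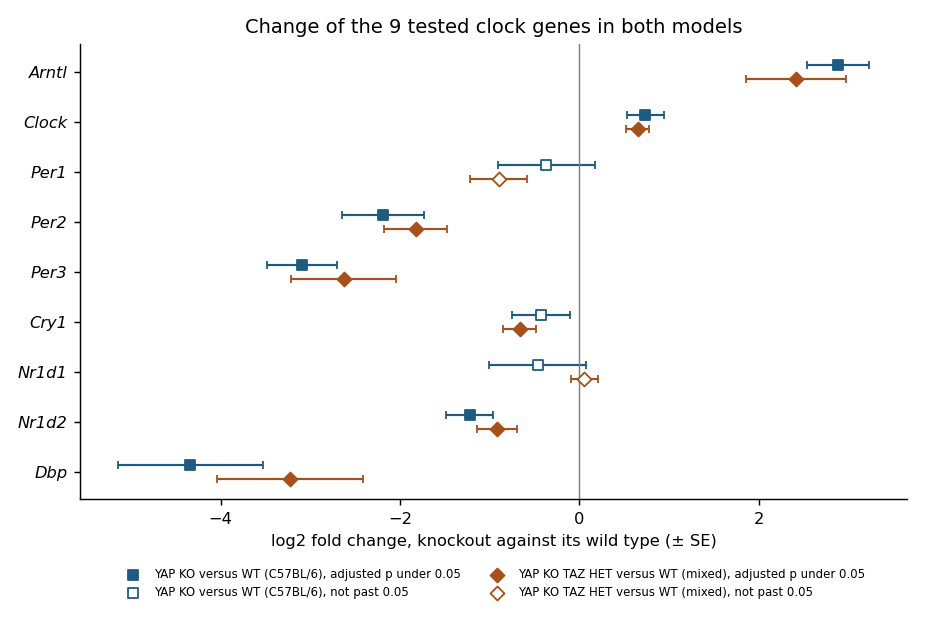
Log2 fold change (log2 of scaled TPM + 1, knockout against its own WT littermates, 3 mice against 3) with its SE for the 9 clock genes that were tested; filled symbols passed an adjusted p of 0.05 under limma and open symbols did not. Arntl in YAP KO TAZ HET mice entered the test only through the knockout livers. Arntl and Clock lie right of 0 in both models, and Dbp lies farthest left, at -4.34 and -3.23.

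For a view per mouse, the activator limb was taken as the mean log2(scaled TPM + 1) of Arntl, Clock and Npas2, and the repressor limb as that of Per1, Per2, Per3, Cry1, Nr1d1 and Nr1d2. Activator minus repressor was -2.78, -3.55 and -3.78 in WT (C57BL/6) mice LM75, LM192 and LM193 and 0.15, 0.49 and -1.55 in YAP KO mice LM74, LM189 and LM191. It was -3.67, -3.92 and -3.59 in WT (mixed) mice LM226, LM227 and LM230 and -2.64, -0.12 and -0.37 in LM225, LM250 and LM251. Every knockout liver had a higher value than every WT liver, but LM225 exceeded LM75 by little. The group means differed by 3.07 in the C57BL/6 set (-0.30 ± 1.09 in YAP KO and -3.37 ± 0.52 in WT mice, SD, n = 3 each) and by 2.68 in the mixed set (-1.05 ± 1.38 and -3.73 ± 0.18). These scores over genes chosen with earlier results known carry no test.

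**Figure D3:**
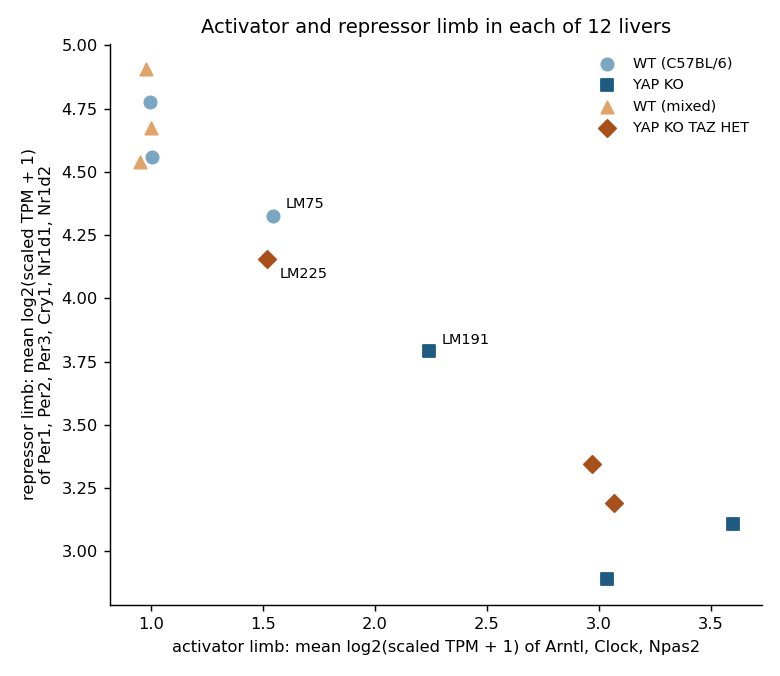
Mean log2(scaled TPM + 1) of the activator limb (x axis) and of the repressor limb (y axis) in 12 livers, 1 point per mouse, with 4 groups by symbol. WT livers gather at the upper left, 4 knockout livers lie at the lower right, and LM75 (WT), LM225 (YAP KO TAZ HET) and LM191 (YAP KO) lie between them, with LM75 and LM225 beside each other.

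Ratios within a liver need no scaling between libraries. Dbp exceeded Arntl 120-fold in LM75, 393-fold in LM192, 452-fold in LM193 and 381 to 535-fold in the WT (mixed) livers. In LM189 the order was turned, Arntl exceeding Dbp 10.5-fold, as in LM74 (1.54-fold) and LM250 (1.46-fold), while the ratio of Dbp to Arntl was 1.11 in LM251, 5.64 in LM191 and 72.6 in LM225. The ratio of Nr1d1 to Dbp was 0.191 to 0.645 in WT livers and 0.455 in LM225, and it was 2.47 to 15.6 in the other 5 knockout livers. By these ratios LM225 lay beyond the WT range for Dbp over Arntl and within it for Nr1d1 over Dbp.

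LM75 and LM225 stood apart from their groups in several clock genes. In LM75, Per2 and Cry1 were at 5.01 and 2.79 TPM where the other 2 WT (C57BL/6) livers had at least 18.9 and 6.998 TPM, and Nr1d1 was at 117 TPM where they had at most 52.5 TPM, whereas Dbp (182 TPM) was close to theirs. Without LM75, 7 of 9 tested clock genes passed in YAP KO mice (34.1% of all genes), Cry1 being the one added, and Per2 changed by -2.78, Per3 by -3.31 and Dbp by -4.35. Without LM225, 6 of the 8 genes tested in YAP KO TAZ HET mice passed (35.7% of all genes). Arntl was then untested, since fewer than 3 libraries reached 1 TPM, Per1 was added and Cry1 lost, and Per2, Per3 and Dbp changed by -2.28, -3.41 and -4.37. One library decided more than these: without LM251 only Clock, Per2 and Per3 of 8 tested genes passed in YAP KO TAZ HET mice, and the share of all genes fell to 25.1% as well.

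Mice of a group differed from each other in the clock genes more than in most genes. The pooled SD within the 4 groups (log2 of scaled TPM + 1) was 1.41 for Dbp, 0.85 for Per3, 0.80 for Npas2 and 0.79 for Arntl, where the median over 12159 genes was 0.18. For 9 of the 10 the share of all genes with a smaller SD was 92.5% (Nr1d2) to 99.9% (Dbp), and for Clock (SD 0.24) it was 69.6%. Dbp was steady in WT livers, with a pooled SD of 0.12 that 25.2% of genes stayed below. In knockout livers its pooled SD was 1.99, larger than in 99.9% of genes. Per2 and Nr1d1 spread as much in WT livers (0.73 and 0.66) as in knockout livers (0.64 and 0.68), and in WT livers LM75 lay farthest from the rest of its group. Npas2, near 0 in WT livers, had a pooled SD of 0.07 there and 1.13 in knockout livers.

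Deviations of each mouse from the mean of its own group show which genes varied together once differences between group means were removed. Arntl was set against the other 9 genes over 12 mice on log2(scaled TPM + 1), with exact two-sided permutation tests within groups (1296 arrangements) and Benjamini-Hochberg adjustment over the 9 relations. Per3 ran opposite to Arntl (Pearson r = -0.967, permutation p = 0.00772, adjusted p = 0.0312, Spearman rho = -0.923, permutation p = 0.0154). So did Dbp (r = -0.890, permutation p = 0.0139, adjusted p = 0.0312, rho = -0.825, permutation p = 0.0355) and Per2 (r = -0.847, permutation p = 0.0116, adjusted p = 0.0312, rho = -0.888, permutation p = 0.0216). Npas2 (r = 0.886, permutation p = 0.0185, adjusted p = 0.0333, rho = 0.951, permutation p = 0.0185) and Clock (r = 0.768, permutation p = 0.00309, adjusted p = 0.0278, rho = 0.846, permutation p = 0.00926) ran with it. Nr1d2 had r = -0.729 (permutation p = 0.0833), and Per1, Cry1 and Nr1d1 had r between -0.288 and 0.156 (permutation p 0.441 to 0.647). Adjusted over the 9 relations, the Spearman permutation p was 0.0639 for Dbp and 0.0486 for Clock, Npas2, Per2 and Per3. Over the 12 mice, deviations in Arntl thus ran opposite to those in Per2, Per3 and Dbp. For Dbp this rests on the knockout livers, since its pooled SD was 0.12 in WT and 1.99 in knockout livers. In the WT mouse LM75, Arntl deviated by 0.59 and Dbp by -0.010, and in LM227 both were above their group mean (0.030 and 0.12).

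With fewer mice, none of these relations passed the threshold. The mice farthest from the median Arntl deviation were LM225 and LM250. Without them, and without LM251, which was then alone in its group, r over 9 mice was -0.896 for Per3 and 0.964 for Clock, and no relation passed (adjusted permutation p at least 0.156). Within the C57BL/6 set alone (6 mice) r was -0.955 for Per3, 0.967 for Clock and -0.780 for Dbp, and within the mixed set (6 mice) it was -0.972, 0.917 and -0.997; 36 arrangements per set left none past the threshold after adjustment (exact permutation, adjusted p at least 0.125). The sets were unlike for Per1, with r of 0.099 in the C57BL/6 set and -0.772 in the mixed set, and for Cry1 (-0.286 and 0.732). With LM75 and LM225 left out, r for Dbp was -0.984 and that for Nr1d1 changed from -0.146 to -0.894 (exact permutation p = 0.0139, adjusted p = 0.125).

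**Figure D4:**
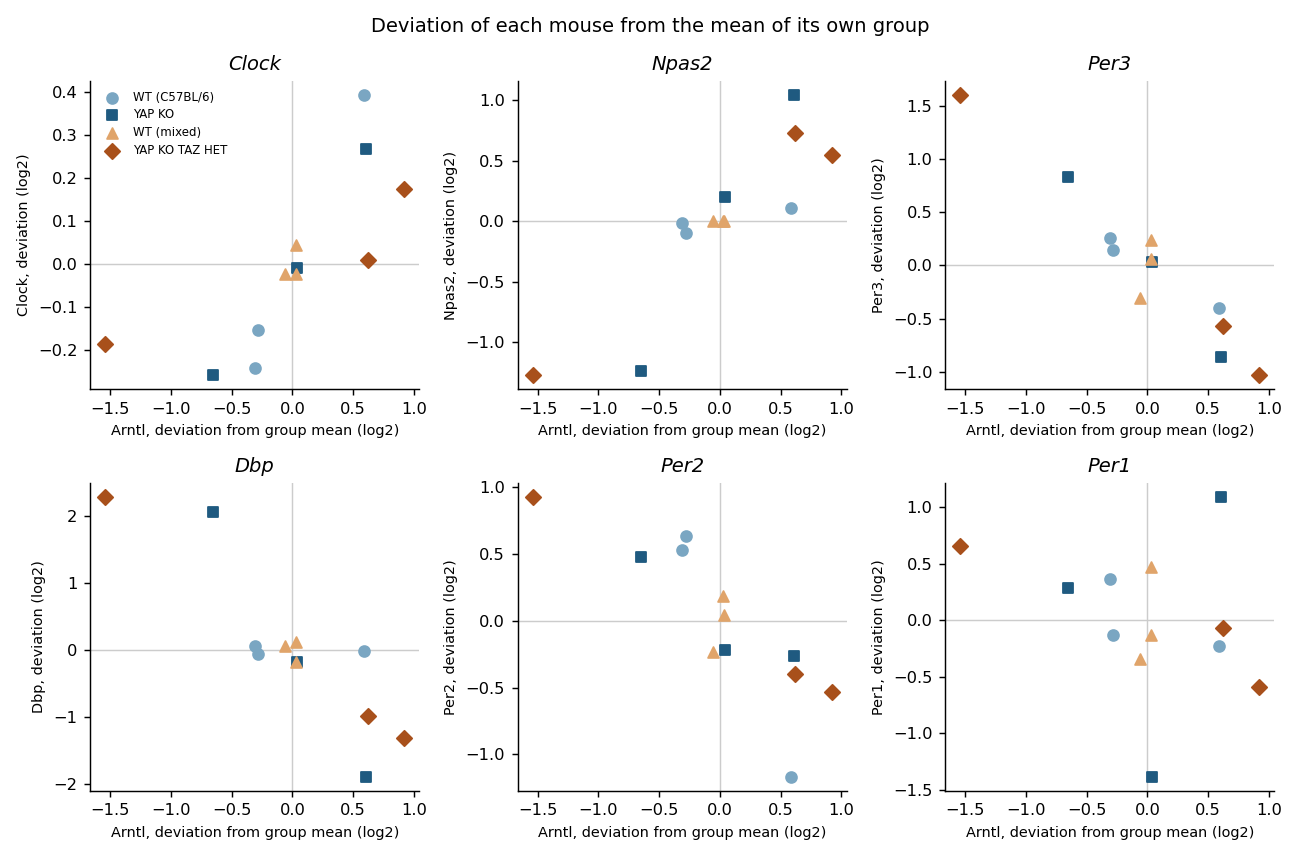
Deviation of Arntl (x axis) and of 6 other clock genes (y axes) from the mean of the mouse's own group, in log2 of scaled TPM + 1, with 1 point per mouse and 4 groups by symbol. Clock and Npas2 slope upward, Per3, Dbp and Per2 slope downward, and Per1 has the r nearest to 0 of the 6 (r = -0.288). The point at an Arntl deviation of -1.54 is LM225.

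By the same measure over the 12 livers, the genes of all 12159 most like Arntl were Clpx (r = 0.975), Rnf144a (0.964), Lrat (0.958), Desi2 (0.956) and Mboat1 (0.953). Those most like Dbp were Tef (0.971), its close relative among the PAR bZIP factors, Stard5 (0.944), Rrm2b (0.936), Per3 (0.932) and Nr1d2 (0.930). At the other end, Npas2 had the lowest r with Dbp of all genes (-0.987), and only 1 gene had a lower r with Arntl than Per3. These are descriptions over 12 mice in 2 sets of littermates, with no test.

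To compare the models, the change of YAP KO TAZ HET mice was subtracted from that of YAP KO mice. This used 1 limma fit over 12 libraries. The models differ in background and in remaining Yap1 RNA as well as in copies of Wwtr1. Yap1 ranged from 1.67 to 3.72 TPM with YAP KO and from 8.63 to 11.5 TPM with YAP KO TAZ HET. The part of TAZ heterozygosity alone was therefore not tested. None of the 10 genes passed (adjusted p = 0.999 each), and 0 had an unadjusted p under 0.05, where 0.0576% of 12159 genes passed. The difference was -1.11 for Dbp (95% interval -3.98 to 1.76), 0.49 for Arntl (-1.14 to 2.11), -0.48 for Per3 (-2.23 to 1.27) and 0.09 for Clock (-0.46 to 0.64). The intervals leave room for several-fold differences in Dbp, Arntl and Per3. With LM75 and LM225 left out, the differences were 0.030 for Dbp, 0.0096 for Arntl, 0.12 for Per3 and 0.19 for Clock.

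Between WT groups the backgrounds were set side by side, WT (mixed) against WT (C57BL/6). None of the 8 genes tested passed under limma, none had an unadjusted p under 0.05, and 0.216% of 11126 genes passed. Dbp came nearest, with a log2 fold change of 0.24 (SE 0.11, limma adjusted p = 0.887). Background and model were set apart in this way only for WT mice, since each knockout was made on 1 background.

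A further 19 genes of the clock and its regulators were counted. In YAP KO mice 11 of the 18 tested passed, 3 higher and 8 lower, beside 36.8% of all genes (18.7% higher, 18.1% lower). In YAP KO TAZ HET mice it was 11 of 18, 2 higher and 9 lower, beside 38% (19.2% and 18.7%). Ciart, a repressor of the ARNTL and CLOCK pair, fell by 2.95 and 2.78 on the log2 scale (SE 0.61 and 0.46, limma adjusted p = 0.00675 and 0.00233). The PAR bZIP factors Tef and Hlf, which bind the same D-boxes as DBP, changed by -2.45 and -1.52 in YAP KO mice and by -1.999 and -1.54 in YAP KO TAZ HET mice. Nfil3, which represses through D-boxes, rose by 1.50 (SE 0.48, limma adjusted p = 0.0399) and 0.81 (SE 0.25, limma adjusted p = 0.0315), and Csnk1e, a kinase that marks Period proteins for decay, by 0.94 and 0.65. The Nfil3 call was lost without LM75, LM192 or LM193 in YAP KO mice. In YAP KO TAZ HET mice it was lost without LM226, LM227, LM250 or LM251. Bhlhe40, a repressor at E-boxes, was at 0.17 in YAP KO mice and fell by 1.02 in the YAP KO TAZ HET group. The median log2 fold change of the tested genes was -0.12 and -0.41, beside -0.04 over all genes in both models. Without LM192 or LM193 the count in YAP KO mice was 6 of 17 in each case (28% and 27.5% of all genes), and without LM75 it was 8 of 17 (34.1%). Without LM225 it was 11 of 17 in YAP KO TAZ HET mice (35.7%). The gene left untested in those YAP KO fits had reached the minimum level in WT livers only. It was kept among the 18 tested in YAP KO mice, and it is no support for the 11 that passed or the 8 lower.

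**Figure D5:**
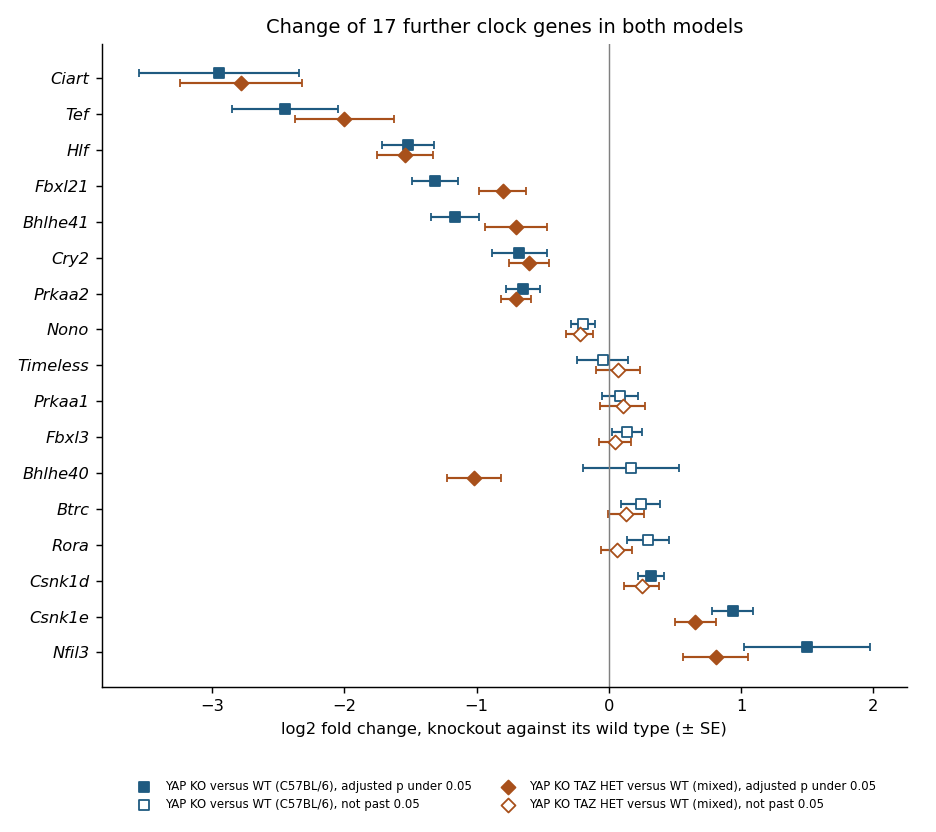
Log2 fold change (log2 of scaled TPM + 1, knockout against its WT littermates) with its SE for 17 of the 18 further clock genes tested, ordered by their value in YAP KO mice; filled symbols passed an adjusted p of 0.05 under limma. Ciart and Tef lie farthest left at -2.95 and -2.45 in YAP KO mice, Nfil3 farthest right at 1.50, and Bhlhe40 is the gene whose symbols lie widest apart, at 0.17 and -1.02.

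Of 16 liver genes known to be driven by the clock, 6 passed in YAP KO mice, near the 36.8% of all genes, and all 6 fell, where 18.1% of all genes did. In YAP KO TAZ HET mice 13 fell and 0 rose, where 18.7% of all genes fell. Usp2, a deubiquitinase under direct control of the clock, changed by -2.53 and -2.90, and its level was 8.02 TPM in LM75, 25.0 to 32.7 TPM in the other 5 WT livers, 14.3 TPM in LM225 and 1.52 to 6.95 TPM in the other 5 knockout livers. Gys2, the liver glycogen synthase, changed by -1.66 and -1.52, Elovl3 by -1.62 and -1.56 and Coq10b by -1.56 and -2.02. A gene of this list reached the minimum level in WT livers only, since 15 were tested whenever a WT mouse was left out. Elovl3 passed in none of those fits and is no support for the counts of genes that fell. Alas1, the entry enzyme of heme synthesis, was at -1.53 (SE 0.52, limma adjusted p = 0.051) in YAP KO mice and changed by -2.40 (SE 0.55, limma adjusted p = 0.0104) in YAP KO TAZ HET mice. Over the list the median change was -0.84 and -1.42. Leaving out LM192 or LM193 left 4 of 15 in YAP KO mice (28% and 27.5% of all genes), and leaving out LM227 left 8 of 15 in YAP KO TAZ HET mice (28.9%).

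Other inputs to clock genes were measured in the same livers, and their part in the results was not tested. Beside all counts here stand the shares of all genes, with 18.7% up and 18.1% down for YAP KO, and 19.2% up and 18.7% down when TAZ HET was added. Of 10 genes induced by glucocorticoids, 5 rose and 1 fell in YAP KO mice and 3 rose and 3 fell in YAP KO TAZ HET mice. Cdkn1a and Igfbp1 rose the most, by 4.36 and 4.00 in YAP KO mice and by 3.14 and 3.50 in YAP KO TAZ HET mice, while Tsc22d3 changed by -1.28 and -1.31. Of 10 genes that respond to temperature, 2 rose and 1 fell in YAP KO mice and 2 rose and 5 fell in YAP KO TAZ HET mice. Without LM189 the first counts were 2 and 3, and without LM75 they were 1 and 2. The cold-inducible Cirbp and Rbm3 rose by 0.59 and 0.64 in YAP KO mice and by 0.89 and 0.75 in YAP KO TAZ HET mice. In YAP KO mice the call of Cirbp was lost without LM75, LM193, LM74 or LM191, while that of Rbm3 was kept. Of 13 immediate-early genes, 8 rose with YAP KO (1 of them, Fosb, tested only through the knockout livers) and 5 with YAP KO TAZ HET, and their summed level was 107 to 186 TPM in WT livers, 406 to 3016 TPM in YAP KO livers and 262 to 352 TPM in those of YAP KO TAZ HET mice. Fos was at 19.8, 189 and 81.1 TPM in YAP KO mice LM74, LM189 and LM191. It was at 12.8, 7.70 and 8.88 TPM in LM225, LM250 and LM251.

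Markers of other liver cells moved with the genotype as well, and their part in the clock results was not tested. The 4 hepatocyte markers used (of 5 listed) summed to 78574 to 102054 TPM in WT livers and to 65937 to 84116 TPM in knockout livers, and 2 of them fell with YAP KO and 1 with YAP KO TAZ HET. All 5 macrophage markers rose in both models, with a sum of 99.1 to 181 TPM in WT livers and 263 to 444 TPM in knockout livers. The 5 cholangiocyte markers summed to 28.8 to 59.9 TPM in WT livers and 323 to 742 TPM in YAP KO livers. In YAP KO TAZ HET livers the sum was 98.7 to 218 TPM. Of the 4 tested, 2 rose in each model while 1 fell in YAP KO TAZ HET mice. In every fit that left out 1 mouse, Sox9 and Spp1 were the ones that rose. Epcam was the one that fell, and it passed only in fits that kept every WT mouse. It reached the minimum level in WT (mixed) livers only, so it is no support for a fall. By staining, the paper found no intrahepatic ducts in adult livers of either model, so the sum does not count duct cells. The 4 stellate markers summed to 12.8 to 21.2 TPM in WT livers, 92.9 to 114 TPM in YAP KO livers and 54.5 to 71.0 TPM in those of YAP KO TAZ HET mice, and 2 rose in each model while Lrat, one of the genes most like Arntl, fell in YAP KO mice. Of 4 endothelial markers, 1 fell in YAP KO mice, and 1 rose and 1 fell in YAP KO TAZ HET mice. Both neutrophil markers rose in YAP KO mice and 1 of 2 in YAP KO TAZ HET mice, and neither of 2 lymphocyte markers passed. No marker of these lists was at 0 in a whole group.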

How the data were processed

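The authors sequenced RNA of frozen whole liver on an Illumina NovaSeq as paired-end reads, aligned it to GRCm38.p6 with CLC Genomics Workbench, and the deposited values are TPM per gene and mouse. Whether counting used strand is not given in the sources used here. Their deposited comparison columns (fold changes, p-values and false discovery rates, made with edgeR within CLC Genomics) were not used. Every TPM column has a sample (0 unmapped), and no 2 libraries held identical values. Read counts were not used, so depth is unknown and no count test was run. Where nothing says more than that mice were littermates, p-values measure the spread between 3 mice.

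TPM were divided by a library factor, the mean log ratio to the average library after trimming 30% of the ratios and 5% of the levels from either end, then 1 was added and log2 taken. Genes that reached 1 TPM in 3 or more libraries entered limma 3.58.1 (R 4.3.3; trend, two-sided, Benjamini-Hochberg adjustment over all genes tested, threshold 0.05), tested on simulated data first. Each model was fitted with its own WT littermates, and the difference between models over 12 libraries. Exact permutation tests used scipy 1.17.1. On mean TPM of single genes they cannot go below 0.1 for 3 mice against 3, so those p-values, though computed, are not printed.

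All 10 members are named, and from each gene list at most 4 genes with the largest change past the threshold in each model. Csnk1e, Bhlhe40, Fos, Fosb and the lone markers named were chosen after their values were seen. Members, lists (other clock genes, liver outputs, glucocorticoid, temperature and immediate-early genes, cell markers) and tests were chosen with earlier results of these data known. Alternatives were another pseudocount (0.1), level filter (none, or 5 TPM), scaling (none, or quantile), variance shrinkage (robust) or fit (all 12 libraries together), and each mouse left out. Leaving out LM75 and LM225 together was added after seeing the data. 1 of the other clock genes is counted with its list but not reported here. Gene positions matched GENCODE M21 for all 10, and promoter windows are from RefSeq.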

Additional observations from a re-analysis of the deposited data

How the results depend on the processing

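In YAP KO mice 5 to 7 of the 10 clock genes passed under every alternative tried, and 5 to 7 when each mouse was left out (6 with all). In YAP KO TAZ HET mice 5 to 7 passed under the alternatives of normalization, filter and fit, and 3 to 7 when each mouse was left out (7 with all), the lowest without LM251. Per2 and Per3 passed in both models in every fit. Arntl, which passed the level filter in YAP KO TAZ HET mice only through the knockout livers, had a limma adjusted p of 0.00275 (YAP KO) or 0.027 (YAP KO TAZ HET) with no filter. The difference between the models and the comparison of WT groups had 0 clock genes past the threshold in every fit. With pseudocount 0.1 the limb difference in YAP KO mice was 4.26 in place of 3.07, and in YAP KO TAZ HET mice 4.01 in place of 2.68. The relations with Arntl went from 5 past the threshold to 0 over the 9 mice left without LM225, LM250 and LM251, where r was still -0.896 for Per3 and 0.964 for Clock with fewer arrangements, and to 0 without LM75 and LM225.

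Signs turned for values that had not passed. With each mouse left out, Per1 ran from -0.91 to 0.33 and Nr1d1 from -1.002 to 0.022 in YAP KO mice, and Nr1d1 from -0.091 to 0.21 in YAP KO TAZ HET mice. Ranges of the difference between models were -0.28 to 0.95 for Arntl, -0.044 to 0.29 for Clock, -0.50 to 0.75 for Npas2, -0.014 to 1.22 for Per1, -0.95 to 0.10 for Per2, -0.99 to 0.32 for Per3, -0.12 to 0.43 for Cry1 and -2.14 to 0.035 for Dbp. With LM75 and LM225 left out together it was -0.45 for Npas2, 0.12 for Per3, -0.27 for Cry1, 0.027 for Nr1d1, 0.068 for Nr1d2 and 0.030 for Dbp, and with pseudocount 0.1 it was -0.41 for Npas2. Between WT groups the ranges were -0.11 to 0.79 for Per2, -0.19 to 0.36 for Cry1, -0.75 to 0.11 for Nr1d1 and -0.053 to 0.15 for Nr1d2. The cause was not tested. No paired analysis was run, because the sources used here do not say which mice came from the same litter. TPM without counts limit the precision that can be stated for low genes such as Npas2.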
